A study of Mus musculus with 30 samples.

Results

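The Serpina3 genes are a block of serine protease inhibitor (serpin) genes on mouse chromosome 12, and 9 of them were followed here: Serpina3b, Serpina3c, Serpina3f, Serpina3g, Serpina3h, Serpina3i, Serpina3k, Serpina3m and Serpina3n. They are 9 of the 35120 genes in the count table, which holds 14 Serpina3 symbols in all, pseudogenes included. The set was chosen by the levels of Serpina3b and Serpina3k, which were lower in male adipocytes labelled as β-catenin knockout than in their controls, so that contrast is described for all 9 genes without a test. The other contrasts were not used to pick the set, except that levels of Serpina3b and Serpina3k in the male libraries entered it.

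The study sequenced mRNA of adipocytes and of stromal-vascular cells (SVC) from white fat of Ctnnb1AdKO mice, in which β-catenin is deleted in adipocytes, and of Ctnnb1fl/fl mice, which carry the floxed allele and no deletion. There were 5 male adipocyte libraries labelled knockout and 6 male controls, 6 female adipocyte libraries labelled knockout and 6 female controls, and 4 male SVC libraries labelled knockout and 3 controls, 30 in all. Fat was digested with collagenase (500 U/ml), and the floating adipocytes were separated from the pelleted SVC, a mixture of progenitor, immune, endothelial and other cells. The labels give neither the ages, nor the driver of the deletion, nor the exons it removes, and they name the epididymal and the posterior subcutaneous depot for every library, the female ones included. Replicate numbers are not stated to be separate mice, so the p-values measure the spread between these libraries, which may be technical.

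Serpins are inhibitors that work as baits. A protease cuts an exposed stretch near the C-terminus, the reactive centre loop, and the serpin then folds over and traps the enzyme, so the letters of the loop decide which proteases are caught. Humans have 1 gene in this place, SERPINA3, which encodes antichymotrypsin, an acute-phase plasma protein made in the liver. In the mouse the ancestral gene has been copied many times, and the copies differ most in the loop. Serpina3n is the copy best known as an acute-phase and glucocorticoid-responsive gene and inhibits granzyme B and elastases. Serpina3k is an abundant liver serpin that binds tissue kallikrein, Serpina3g acts inside cells and inhibits lysosomal cysteine cathepsins, and Serpina3c has been described in fat cells.

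The loop region is shown for 6 genes, because it is where the copies differ and where a read can tell them apart. Each line runs 5′ to 3′ on the coding strand, within 1 exon, read from GENCODE M21 transcripts on GRCm38. The capitals mark the variable stretch between the hinge and the bases that follow the loop. These lower-case flanks are more alike among the other genes shown, and those of Serpina3b differ from them at several bases.
Serpina3b, chr12:104138665-104138754, plus strand: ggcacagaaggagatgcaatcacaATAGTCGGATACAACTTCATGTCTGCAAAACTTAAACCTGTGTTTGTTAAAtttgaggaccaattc
Serpina3k, chr12:104345269-104345352, plus strand: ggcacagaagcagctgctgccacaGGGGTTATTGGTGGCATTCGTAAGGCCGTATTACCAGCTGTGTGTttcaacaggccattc
Serpina3m, chr12:104393769-104393858, plus strand: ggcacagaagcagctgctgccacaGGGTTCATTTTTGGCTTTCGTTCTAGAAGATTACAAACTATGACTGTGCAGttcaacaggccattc
Serpina3c, chr12:104147307-104147387, minus strand: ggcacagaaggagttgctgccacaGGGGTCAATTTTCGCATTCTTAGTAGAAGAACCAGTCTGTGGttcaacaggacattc
Serpina3n, chr12:104413448-104413537, plus strand: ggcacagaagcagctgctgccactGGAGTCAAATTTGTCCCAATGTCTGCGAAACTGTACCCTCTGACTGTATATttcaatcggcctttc
Serpina3f, chr12:104220245-104220337, plus strand: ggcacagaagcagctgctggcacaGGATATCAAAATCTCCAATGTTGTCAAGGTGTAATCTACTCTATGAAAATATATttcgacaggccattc

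Over the aligned coding sequence the 8 protein-coding members were 74.8% to 92.0% identical in pairs, whereas over the capitals alone identity ran from 33.3% to 78.6%. Bases opposite a gap were not counted. The Serpina3g coding sequence used was shorter than the others, at 744 bases. The lowest pair, Serpina3b with Serpina3g, therefore rests on 654 aligned bases. Serpina3k and Serpina3m were the closest pair over the coding sequence (92.0%) and matched at 64.4% of the variable bases. Serpina3f and Serpina3i were next (91.4% and 68.6%). Serpina3b matched no other member above 78.9% (Serpina3n). Serpina3h is annotated as a transcribed pseudogene and has no coding sequence to compare.

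These differences bear on how far reads can be assigned to 1 copy. Of all 100-base stretches in a gene's transcripts, none of Serpina3b or Serpina3c was found in another Serpina3 gene, 0.204% of those of Serpina3n were, and 2.25% to 6.09% of those of the other members. Of the Serpina3k stretches, 4.85% also occurred in Serpina3m and in no other gene of the cluster. At 50 bases the shared part grew to between 2.92% (Serpina3b) and 21.9% (Serpina3h). No source used here states the read length or how the authors treated reads that match several genes, so values of Serpina3f, Serpina3g, Serpina3h, Serpina3i, Serpina3k and Serpina3m are less certain than those of Serpina3b, Serpina3c and Serpina3n.

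Total counts lay between about 20484800 and 22209600 per library. Ctnnb1, which encodes β-catenin, was not lower in the knockout-labelled libraries by edgeR's quasi-likelihood test with Benjamini-Hochberg adjustment (log2 fold change -0.03 in male adipocytes, 0.11 in female adipocytes and 0.08 in SVC, adjusted p = 0.919, 0.670 and 0.979), and whole-gene counts need not fall when a few exons are removed, so the genotype labels are unchecked by this gene. Adipoq, the adipocyte hormone adiponectin, lay between 3631 and 6715 CPM in adipocyte libraries and between 8.96 and 156 CPM in SVC libraries. CPM are counts scaled to an equal library total in every library. Epididymal and sperm transcripts were found in SVC libraries, with a summed level of 7.08 to 2629 CPM in knockout-labelled and 79.3 to 4717 CPM in control libraries, and stayed at or below 8.99 CPM in adipocytes. In bulk RNA, fewer cells of a type and less RNA per cell cannot be told apart.

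Per kilobase of exon, Serpina3n was the highest member in all 6 groups and Serpina3c the second. In male control adipocytes Serpina3n had 550 ± 37.1 CPM per kb and Serpina3c 201 ± 31.9 (SD, n = 6 each). Serpina3f followed with 25.6 ± 4.37, Serpina3b with 11.3 ± 4.81, Serpina3m with 6.49 ± 1.12, Serpina3k with 3.73 ± 0.53 and Serpina3i with 2.35 ± 0.59 CPM per kb. Serpina3g and the pseudogene Serpina3h were near the bottom at 0.55 ± 0.19 and 0.52 ± 0.19 CPM per kb. The ranges over libraries overlapped between the neighbours Serpina3b and Serpina3m, Serpina3k and Serpina3i, and Serpina3g and Serpina3h, and did not overlap between the other neighbours in this order.

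Serpina3n and Serpina3c together made up 88.9% to 98.3% of the counts of the 9 genes in a library. The summed level of the 9 genes was 1455 ± 219 CPM in male knockout-labelled adipocytes (SD, n = 5) and 1689 ± 120 CPM in male controls (n = 6). In females it was 1084 ± 193 CPM in knockout-labelled and 857 ± 72.9 CPM in control adipocytes (n = 6 each). In SVC it was 152 ± 37.4 CPM in knockout-labelled (n = 4) and 162 ± 39.6 CPM in control libraries (n = 3). The mean sum therefore stood below that of the controls in male and above it in female adipocytes, with overlapping libraries in both. In males the libraries ran from 1234 to 1679 CPM in knockout-labelled and from 1547 to 1907 CPM in control adipocytes. In females they ran from 897 to 1441 CPM and from 749 to 961 CPM. The sum was not tested.

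**Figure D1:**
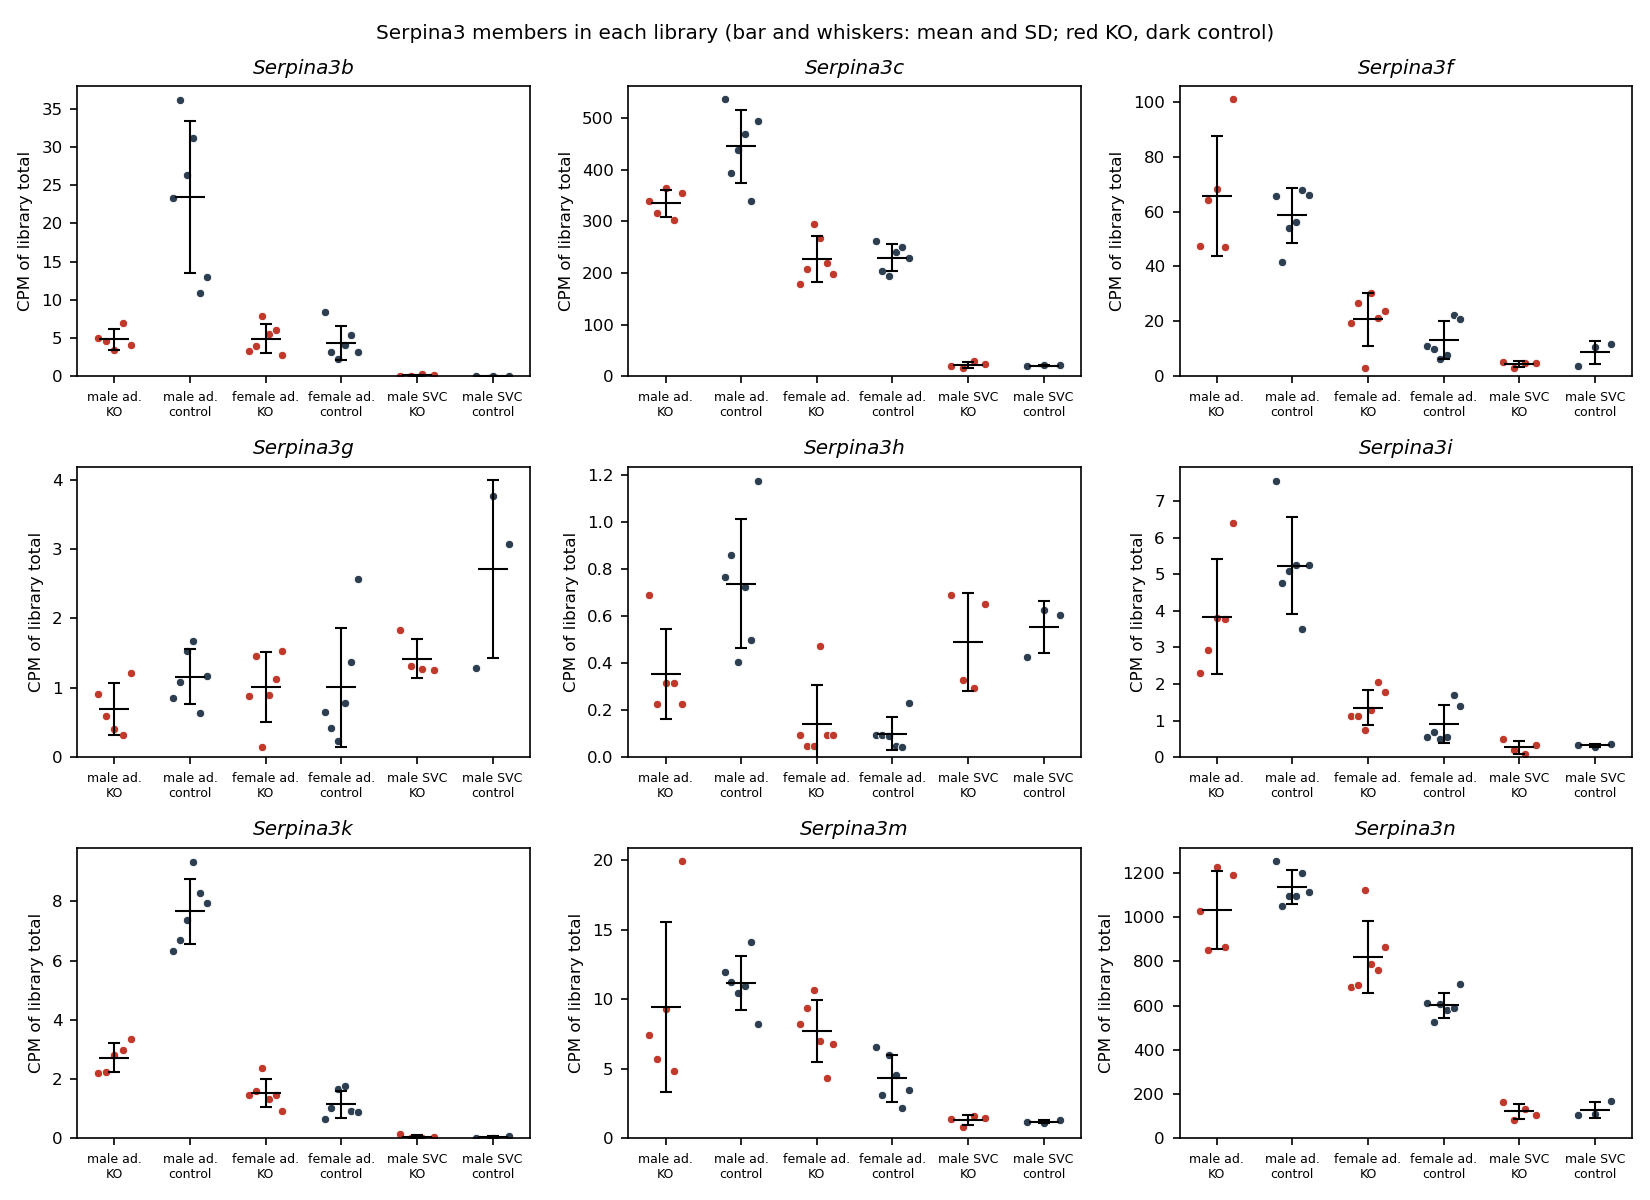
Level of each Serpina3 gene in every library, in CPM of the library total on linear axes that start at 0, with knockout-labelled libraries in red and controls in dark, and the mean and SD of each group as a bar with whiskers. Serpina3b and Serpina3k stand high in male control adipocytes alone, Serpina3n and Serpina3c are present in all groups and are far higher in adipocytes than in SVC, and Serpina3g is as high in SVC as in adipocytes or higher.

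In male adipocytes, the contrast behind the choice of the set, Serpina3b and Serpina3k were the 2 members whose libraries did not overlap between genotype labels. Serpina3b stood at 5.01, 4.62, 3.48, 6.99 and 4.06 CPM in the 5 knockout-labelled libraries, against 10.9, 24.9 and 36.2 CPM as the lowest, the median and the highest of the 6 controls. The controls themselves split, with 2 of them at 10.9 and 13.0 CPM and the other 4 at 23.4 CPM or above, so part of the spread lies among controls. The log2 fold change was -2.31 (SE 0.34).

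Serpina3k stood at 2.20, 2.24, 2.80, 3.00 and 3.34 CPM in the knockout-labelled libraries, against a lowest, median and highest control of 6.33, 7.67 and 9.34 CPM. The groups were tight and well apart, with a log2 fold change of -1.53 (SE 0.22). The low controls of Serpina3b were not the low ones of Serpina3k: the control with 10.9 CPM of Serpina3b had 8.29 CPM of Serpina3k. Of all 14227 genes tested in this contrast, 0.0492% were called lower and 0.0703% were called either way at an adjusted p below 0.05, and 0.766% had all knockout-labelled libraries below all controls. These shares stand beside the 2 members for scale, and nothing is read from them because the contrast chose the set.

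Serpina3c, the second most abundant copy, averaged 335 ± 25.9 CPM in male knockout-labelled adipocytes (n = 5) and 445 ± 70.7 CPM in controls (n = 6), a log2 fold change of -0.45 (SE 0.13) with overlapping libraries. Serpina3n, the acute-phase copy, averaged 1032 ± 175 and 1135 ± 76.7 CPM in the same groups (log2 -0.18, SE 0.13). Of its knockout-labelled libraries 3 of 5 lay below the lowest control, at 852, 866 and 1029 CPM, and the other two lay among the controls, at 1189 and 1226 CPM.

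Serpina3f and Serpina3m were set by 1 library. Serpina3f had 47.6, 64.3, 68.2, 46.9 and 101 CPM in the knockout-labelled libraries, against 41.7, 60.9 and 68.0 CPM as the lowest, median and highest control. Its log2 fold change was 0.13 (SE 0.38), and -0.09 without knockout-labelled library 5, the one at 101 CPM. Serpina3m had 7.40, 5.71, 9.26, 4.86 and 19.9 CPM against a lowest, median and highest control of 8.22, 11.1 and 14.1 CPM, and its log2 fold change of -0.27 (SE 0.30) became -0.76 without the same library. That library was also the highest of its group in Serpina3g, Serpina3i and Serpina3k.

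The 3 members of lowest level in male controls also had negative estimates, with overlapping libraries. Serpina3g averaged 0.69 ± 0.37 CPM in knockout-labelled and 1.16 ± 0.39 CPM in control male adipocytes (log2 -0.78, SE 0.52), Serpina3h 0.36 ± 0.19 and 0.74 ± 0.27 CPM (log2 -1.08, SE 0.40), and Serpina3i 3.84 ± 1.57 and 5.23 ± 1.32 CPM (log2 -0.48, SE 0.30). Over all 9 members 8 estimates were negative and the median log2 fold change was -0.48, against 0.02 over all genes tested. Without Serpina3b and Serpina3k the median of the other 7 was -0.45. Nothing is read from these values, because the contrast chose the set.

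Serpina3k and other members are also liver genes, so liver transcripts were read in the same libraries. Ttr, the liver transport protein transthyretin, counted 0 in all 11 male adipocyte libraries, and Apoa1, the main protein of HDL, stayed at or below 0.136 CPM. Alb, albumin, averaged 10.1 ± 1.27 CPM in knockout-labelled (n = 5) and 10.3 ± 2.64 CPM in control male adipocytes (n = 6). The summed level of the 18 hepatocyte genes listed, 14 of them with counts in each group, was 3182 to 5152 CPM in knockout-labelled and 7311 to 8815 CPM in control libraries, and none of its 8 tested genes was called (median log2 -0.18, against 0.02 over all genes). Nearly all of that sum was Cyp2e1, a cytochrome P450 named after its values were seen, at 4250 ± 848 CPM in knockout-labelled (n = 5) and 8080 ± 676 CPM in control libraries (n = 6). Markers of mesothelium were also lower on the whole (12 of 13 genes tested, median log2 -1.41, none called, summed level 14.7 to 37.5 CPM in knockout-labelled and 24.0 to 134 CPM in control libraries, with Upk3b, Msln and Lrrn4 above 0 in every library). Macrophage markers, all 15 tested and none called, summed to 726 to 1144 CPM and 647 to 1226 CPM. The part of these cells in the values of Serpina3b and Serpina3k was not tested.

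In female adipocytes, libraries the choice did not use, no member was called in the comparison of knockout-labelled with control libraries. By edgeR's quasi-likelihood test 0 of 9 members passed an adjusted p of 0.05, against 0.471% of the 14227 genes tested. An unadjusted p under 0.05 was found for 2 members and for 1469 of all genes tested, and DESeq2 called 1 member and 208 genes in all. All 9 estimates were positive, with a median log2 fold change of 0.51, against 0.01 over all genes tested. The signs of 3 estimates did not hold under every alternative: Serpina3c gave -0.01 when counts were scaled to library totals and -0.03 without knockout-labelled library 3, Serpina3g gave between -0.15 and -0.02 without 1 or another of 6 libraries, and Serpina3h gave -0.31 without knockout-labelled library 4. Serpina3h averaged 0.14 ± 0.16 CPM in knockout-labelled and 0.10 ± 0.07 CPM in control libraries (n = 6 each; log2 0.52, SE 0.58), with 1 to 10 counts per library.

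Serpina3n came closest to the threshold. Its knockout-labelled libraries had a lowest level of 684 CPM, a median of 773 CPM and a highest of 1121 CPM, against 528, 597 and 700 CPM in controls, and 4 of 6 knockout-labelled libraries exceeded every control. The log2 fold change was 0.51 (SE 0.12, adjusted p = 0.0607 by edgeR). Over 21 alternatives it ran from 0.40 to 0.57 and the adjusted p from 0.00654 to 0.204, and 4 of them called it. These were DESeq2 (adjusted p = 0.00654), a minimum count of 50 (0.0471), a replicate block (0.0376) and the fit without control 6 (0.0324).

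Serpina3m was 7.72 ± 2.20 CPM in knockout-labelled and 4.31 ± 1.70 CPM in control female adipocytes (SD, n = 6 each), a log2 fold change of 0.92 (SE 0.30, edgeR adjusted p = 0.228) with overlapping groups. The 2 members that marked the male contrast were at low and similar levels here. Serpina3b had a lowest, median and highest level of 2.84, 4.72 and 7.88 CPM in knockout-labelled libraries and 2.21, 3.62 and 8.41 CPM in controls (log2 0.23, SE 0.33, adjusted p = 0.860). Serpina3k averaged 1.52 ± 0.47 CPM and 1.15 ± 0.45 CPM in the same groups (log2 0.47, SE 0.23, adjusted p = 0.482). A p that misses the threshold does not show that the groups were alike.

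The remaining members were not called in females, and their libraries overlapped between the groups. Of 6 knockout-labelled libraries, 3 lay above and 1 below every control in Serpina3f, and 2 above and 0 below in Serpina3i. Serpina3f averaged 20.7 ± 9.59 CPM in knockout-labelled and 13.1 ± 6.93 CPM in control libraries (log2 0.70, adjusted p = 0.542) and Serpina3i 1.35 ± 0.48 and 0.90 ± 0.51 CPM (log2 0.63, adjusted p = 0.541). Serpina3c was 228 ± 44.2 and 230 ± 26.7 CPM (log2 0.05, adjusted p = 0.932), and Serpina3g 1.01 ± 0.50 and 1.01 ± 0.86 CPM (log2 0.05, adjusted p = 0.987). Knockout-labelled library 3 stood apart from its group, with the lowest Serpina3f (60 counts) and Serpina3g (3 counts) and the highest Serpina3b, Serpina3c, Serpina3k, Serpina3m and Serpina3n. Macrophage markers summed to 92.0 to 372 CPM in knockout-labelled and 305 to 604 CPM in control female adipocytes, and C1qc, a complement subunit of macrophages, was lower (17.3 ± 6.75 and 41.5 ± 14.5 CPM, log2 -1.19, SE 0.26, edgeR adjusted p = 0.0376). Mesothelial markers summed to 24.5 to 59.2 CPM and 25.8 to 132 CPM, with a median log2 fold change of -1.66 over 12 tested, none called. Their part in the Serpina3 values was not tested.

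The genotype estimate was therefore positive in females and negative in males for 8 of 9 members, Serpina3f being positive in both. The difference of the log2 effects, female minus male, was 2.55 for Serpina3b (SE 0.47), 2.01 for Serpina3k (SE 0.32), 1.60 for Serpina3h (SE 0.71), 1.19 for Serpina3m (SE 0.43) and 1.11 for Serpina3i (SE 0.46). It was 0.68 for Serpina3n (SE 0.18) and 0.50 for Serpina3c (SE 0.17). For Serpina3g (0.83, SE 0.70) and Serpina3f (0.57, SE 0.54) the error was nearly as large as the difference. These are given with their errors and without a p because the male contrast is part of them.

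**Figure D2:**
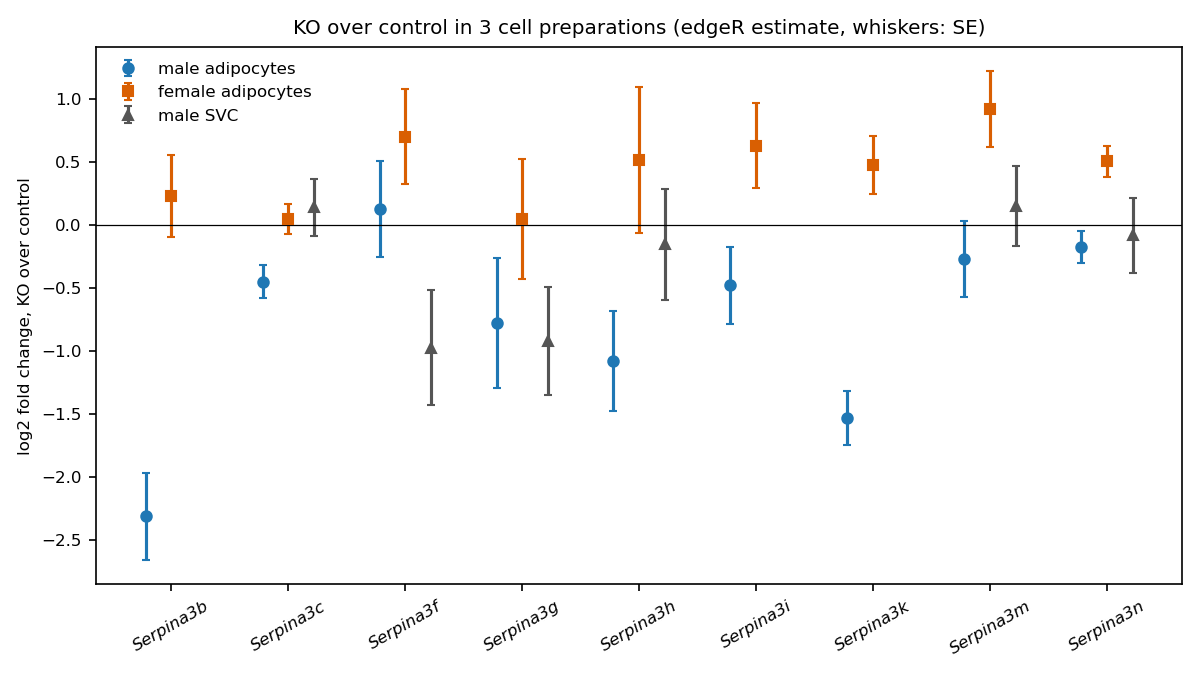
Log2 fold change of knockout-labelled over control libraries for each member in male adipocytes (circles), female adipocytes (squares) and male SVC (triangles), with whiskers of 1 SE. Male estimates lie below 0 except for Serpina3f, female estimates lie at or above 0, and Serpina3b, Serpina3i and Serpina3k have no SVC point because too few counts passed the filter.

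In SVC, 6 members passed the filter on low counts and none was called, as was the case for 0% of the 16404 genes tested (by edgeR, 429 genes had an unadjusted p under 0.05, and DESeq2 called 65 genes and 0 members). Serpina3n had 163, 84.2, 131 and 107 CPM in the knockout-labelled libraries and 104, 111 and 168 CPM in the controls (log2 -0.08, SE 0.30, edgeR adjusted p = 0.980), so the groups covered the same range. Serpina3g, the intracellular member, averaged 1.42 ± 0.28 CPM in knockout-labelled (n = 4) and 2.71 ± 1.28 CPM in control SVC (n = 3; log2 -0.92, SE 0.43, adjusted p = 0.968). Serpina3f averaged 4.47 ± 1.07 and 8.69 ± 4.30 CPM (log2 -0.97, SE 0.46, adjusted p = 0.968). In both genes 1 control, library 1, lay among or near the knockout-labelled ones and the other two lay above them. Serpina3b counted 2, 0, 5 and 3 in the knockout-labelled and 0, 1 and 2 in the control libraries, and Serpina3k 3, 0, 0 and 1 and 0, 0 and 2, so the fall seen in male adipocytes could not be looked for in SVC at this depth. Mesothelial markers summed to 166 to 493 CPM in knockout-labelled and 379 to 815 CPM in control SVC, all 13 tested and none called. Adipocyte markers did not overlap between the groups, with sums of 3648 to 5012 CPM in knockout-labelled and 2514 to 3632 CPM in control SVC (12 tested, none called, median log2 0.99). The part of these cells in the SVC values was not tested.

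Most members were higher in adipocytes than in SVC. Between control adipocytes and control SVC of males, 7 of 9 members were called higher in adipocytes by edgeR, against 32.8% of the 17251 genes tested, and none lower, against 44.2%. Levels of Serpina3b and Serpina3k entered the choice of the set, and these 2 and Serpina3i passed the filter only through the adipocytes, so that 4 of 6 members remain without them: Serpina3c, Serpina3f, Serpina3m and Serpina3n. The same 7 genes, all but Serpina3g and Serpina3h, were called higher in knockout-labelled adipocytes over knockout-labelled SVC, against 31.8% of all genes. In each of the 7 called genes every adipocyte library lay above every SVC library, which held for 22.1% of all genes in control and 18.6% in knockout-labelled libraries. Without Serpina3b and Serpina3k it was 5 of 7 members in each comparison, Serpina3i included. The median of all genes was -0.29 on the log2 scale in both comparisons and moved to -0.85 and -0.75 when counts were scaled to library totals, so a log2 value here is relative to a scaling that shifts by about that much.

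Serpina3b and Serpina3k had the steepest ratios. Over the group totals, Serpina3b had 3115 counts in 6 control adipocyte libraries and 3 counts in 3 control SVC libraries, a ratio of 495 after division by the library totals (95% exact interval 169 to 2400). Serpina3k had 1017 and 2 counts, a ratio of 242 (66.9 to 2003). In knockout-labelled libraries the ratios were 41.0 (22.1 to 86.0, from 531 and 10 counts) and 57.7 (22.3 to 213, from 299 and 4 counts). These intervals cover counting error only. The trait was not particular to these 2 genes. Serpina3j, a copy of the cluster outside the set, averaged 3.57 CPM in control adipocytes and 0.016 CPM in control SVC (log2 7.85). In the knockout-labelled fractions it averaged 1.92 and 0.012 CPM (log2 7.16). For comparison, Adipoq averaged 4899 CPM in control adipocytes and 35.2 CPM in control SVC, and 4683 and 87.0 CPM in the knockout-labelled fractions.

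The abundant members were less restricted to adipocytes. Serpina3c was 21.6 times higher in control adipocytes than in control SVC (445 and 20.7 CPM) and Serpina3n 8.90 times (1135 and 128 CPM), with log2 fold changes of 4.96 (SE 0.22, edgeR adjusted p = 9.45e-12) and 3.66 (SE 0.27, adjusted p = 2.32e-09). Serpina3i, Serpina3m and Serpina3f were 15.8, 9.28 and 6.74 times higher. Serpina3g and Serpina3h were the exceptions. Serpina3h averaged 0.74 ± 0.27 CPM in control adipocytes and 0.55 ± 0.11 CPM in control SVC (log2 0.93, adjusted p = 0.0541), and 0.36 ± 0.19 and 0.49 ± 0.21 CPM in the knockout-labelled fractions (log2 -0.02, adjusted p = 0.965). Serpina3g averaged 1.16 ± 0.39 CPM in control adipocytes (n = 6) and 2.71 ± 1.28 CPM in control SVC (n = 3), with a log2 fold change of -0.70 (SE 0.43, adjusted p = 0.146). In knockout-labelled libraries every adipocyte library had less Serpina3g than every SVC library (0.69 ± 0.37 and 1.42 ± 0.28 CPM, log2 -0.60, adjusted p = 0.211), which held for 44.2% of all genes. Scaled to library totals, the 2 comparisons gave -1.22 and -1.04, both called (adjusted p = 0.0115 and 0.0276).

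Most members were lower in female than in male control adipocytes. Among controls, 8 of 9 members were called lower in female than in male adipocytes by edgeR, against 20.1% of the 14227 genes tested, and each of the 8 had all female libraries below all male ones, against 11.2% of all genes. Apart from Serpina3b and Serpina3k, whose male levels entered the choice, and Serpina3h, which passed the filter only through the male libraries, 5 of 6 were called lower. The median log2 fold change of the 9 members was -2.16, against 0.05 over all genes. The labels do not state whether male and female libraries were prepared together or how the depots were mixed in each sex, so sex, depot and preparation cannot be told apart. Markers of other cells moved with sex as well. Of 15 macrophage markers 10 were called lower in female controls and 15 in female knockout-labelled adipocytes, against 20.1% and 16.5% of all genes tested. Their summed level was 92.0 to 372 CPM in female and 726 to 1144 CPM in male knockout-labelled libraries. In controls it was 305 to 604 CPM in female and 647 to 1226 CPM in male libraries. Of 12 preadipocyte and fibroblast markers 6 were higher in female controls and 7 in female knockout-labelled adipocytes, and of 10 brown and beige markers tested 6 and 10 were higher. Of all genes tested, 23.7% and 18.2% were called higher in these contrasts. Their part in the sex differences was not tested.

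Serpina3n averaged 602 ± 56.3 CPM in female and 1135 ± 76.7 CPM in male control adipocytes (SD, n = 6 each; log2 -0.93, SE 0.12, adjusted p = 2.94e-06 by edgeR). Serpina3c averaged 230 ± 26.7 and 445 ± 70.7 CPM (log2 -0.97, SE 0.12, adjusted p = 1.46e-06). Serpina3f differed more, at 13.1 ± 6.93 and 58.6 ± 10.0 CPM (log2 -2.16, SE 0.38, adjusted p = 0.000125), as did Serpina3i at 0.90 ± 0.51 and 5.23 ± 1.32 CPM (log2 -2.53, SE 0.32, adjusted p = 2.07e-06). Serpina3m averaged 4.31 ± 1.70 and 11.2 ± 1.93 CPM (log2 -1.40, adjusted p = 0.000703). The pseudogene Serpina3h averaged 0.10 ± 0.07 and 0.74 ± 0.27 CPM, with 1 to 5 counts per female library, and is given as a description. Serpina3g was the member that did not pass, at 1.01 ± 0.86 and 1.16 ± 0.39 CPM (log2 -0.20, SE 0.47, adjusted p = 0.752). As a description, Serpina3b averaged 4.40 ± 2.24 and 23.5 ± 9.95 CPM (log2 -2.43) and Serpina3k 1.15 ± 0.45 and 7.67 ± 1.10 CPM (log2 -2.75).

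Among knockout-labelled libraries, 4 of 9 members were called lower in females, against 16.5% of all genes tested, and 3 of the 7 members other than Serpina3b and Serpina3k were. Serpina3f (20.7 ± 9.59 CPM in females, n = 6, and 65.6 ± 21.9 CPM in males, n = 5) had a log2 fold change of -1.59 (edgeR adjusted p = 0.00301), Serpina3i -1.42 (adjusted p = 0.00155) and Serpina3c -0.47 (adjusted p = 0.00533). In these 3 no female library reached the lowest male one, which held for 11.3% of all genes. Serpina3k, the fourth, averaged 1.52 ± 0.47 and 2.72 ± 0.49 CPM (log2 -0.75) with overlapping libraries, and Serpina3b 4.93 ± 1.92 and 4.83 ± 1.34 CPM (log2 0.12). Both genes were chosen for their low level in these male libraries. Their values here are a description, and nothing is read from a smaller sex difference than among controls. Serpina3n had a log2 fold change of -0.25 (adjusted p = 0.134) and Serpina3m of -0.21 (SE 0.30, not called), or 0.25 without male knockout-labelled library 5. The 2 sex contrasts share no libraries, but with the genotype contrasts each shares both of its groups.

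**Figure D3:**
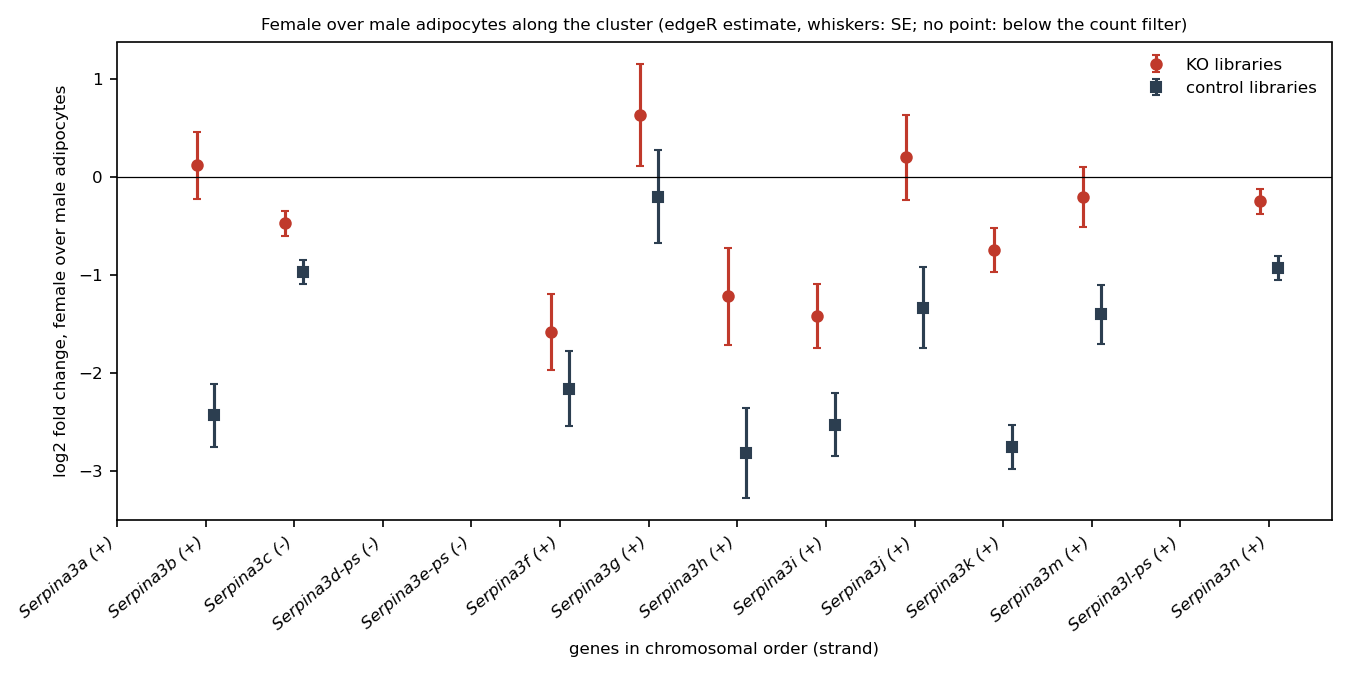
Log2 fold change of female over male adipocytes in knockout-labelled (red circles) and control libraries (dark squares), with whiskers of 1 SE, for the 14 Serpina3 genes in chromosomal order with their strand. All points of control libraries lie below 0, those of Serpina3b, Serpina3g and Serpina3j in knockout-labelled libraries lie above it, and 4 genes have no point because too few counts passed the filter.

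Other genes of the locus differed between the sexes in both directions. Of the other genes in and around the cluster, 11 of 25 passed the filter, and in female over male controls 2 of them were called higher and 4 lower, with a median log2 fold change of -0.53, where 23.7% of all genes tested were called higher and 20.1% lower. Serpina3j, the copy between Serpina3i and Serpina3k, was lower (1.42 ± 0.72 and 3.57 ± 1.48 CPM, log2 -1.33, edgeR adjusted p = 0.0122). Nearby Ifi27, an interferon-induced gene of the mitochondrion, was higher (725 ± 107 and 415 ± 39.8 CPM, log2 0.78, adjusted p = 5.4e-06), as was Otub2, a deubiquitinase (log2 0.94, adjusted p = 3.7e-05). Ddx24, an RNA helicase, was lower (log2 -0.63, adjusted p = 0.000115). Of 12 serpins encoded elsewhere, 7 were higher and 2 lower in female controls, with a median of 0.95, beside the same shares of 23.7% and 20.1%. They included Serpine2, a protease nexin (log2 -1.34, adjusted p = 4.5e-07), Serpinh1, a collagen chaperone (log2 0.95, adjusted p = 0.000227) and Serpinf1, the secreted factor PEDF (log2 1.78, adjusted p = 0.000504).

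In the genotype contrasts none of the other locus genes or other serpins was called, in male adipocytes (11 and 12 tested), female adipocytes (11 and 12) or SVC (8 and 15). Serpina3j pointed the way of its neighbours, with log2 fold changes of -0.92 in male adipocytes (SE 0.43, edgeR adjusted p = 0.362) and 0.61 in female adipocytes (SE 0.42, adjusted p = 0.664).

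Serpina3n and its human counterpart are known targets of glucocorticoids, of the IL-6 and STAT3 pathway and of interferon, and these lists were read beside the members. Of the 22 glucocorticoid-related genes 0 were called in male adipocytes or SVC. In female adipocytes 1 was called, where 0.471% of all genes tested were called either way. This was Hsd11b1, the enzyme that regenerates active corticosterone. It rose to 54.0 ± 22.3 CPM in knockout-labelled libraries, against 22.7 ± 7.49 CPM in controls (n = 6 each, log2 1.34, SE 0.22, edgeR adjusted p = 0.00382). The median log2 fold changes of the list were -0.01 in male adipocytes, 0.13 in female adipocytes and -0.15 in SVC, against 0.02, 0.01 and 0.04 over all genes. Of 21 acute-phase genes tested in adipocytes and 18 in SVC, 0 were called in each contrast (medians -0.11 in male adipocytes, 0.26 in female adipocytes and -0.17 in SVC), and of 34 interferon-response genes 0 were called (0.02, 0.35 and -0.07). In the 12 brown and beige adipocyte markers, 4 of 10 tested were called higher in female adipocytes (median log2 1.15), where 0.323% of all genes tested were. Among them Ppargc1a, a coactivator of mitochondrial genes, had a log2 fold change of 1.22, Cidea, a lipid droplet protein, 2.01, and Otop1, a proton channel, 2.09 (edgeR adjusted p = 0.0143, 0.0364 and 0.0409). Wnt target genes, the classical readout of β-catenin, gave 0 calls of 7 tested in adipocytes and 14 tested in SVC. Their median log2 fold changes were 0.09 in male adipocytes, -0.45 in female adipocytes and -0.19 in SVC.

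Serpins act on proteases, so 29 serine and cysteine proteases that they or their relatives are known to meet were listed. In female adipocytes 1 of 17 tested was called, where 0.471% of all genes tested were called either way. This was Ctsh, the lysosomal cathepsin H. It rose to 29.8 ± 12.0 CPM in knockout-labelled libraries, against 12.8 ± 6.24 CPM in controls (n = 6 each, log2 1.31, SE 0.28, edgeR adjusted p = 0.0359). In male adipocytes (17 tested) and SVC (22 tested) 0 were called. Between control adipocytes and control SVC 5 of 23 were higher and 15 lower, where 32.8% of all genes were higher and 44.2% lower, and the list holds proteases of mast cells and lymphocytes such as Mcpt4, Cpa3 and Gzmb. Of other serpins 2 of 15 were higher and 13 lower in control adipocytes.

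In female over male control adipocytes the glucocorticoid-related list had 4 genes called higher and 8 lower of 22 and the acute-phase list 2 higher and 8 lower of 21, where 23.7% of all genes were higher and 20.1% lower. Fkbp5, a glucocorticoid-induced chaperone of the steroid receptors, averaged 17.8 ± 6.15 CPM in female and 132 ± 29.3 CPM in male controls (n = 6 each; log2 -2.92, edgeR adjusted p = 2.0e-11). Hsd11b1 averaged 22.7 ± 7.49 and 103 ± 11.7 CPM (log2 -2.22, adjusted p = 9.7e-08), and Sult1a1, a sulfotransferase, 325 ± 72.8 and 126 ± 13.3 CPM (log2 1.35, adjusted p = 7.4e-07). Of the acute-phase genes, haptoglobin (Hp) averaged 2287 ± 581 and 7661 ± 1237 CPM (log2 -1.76, adjusted p = 3.8e-07), and the serum amyloid genes Saa1 and Saa2 had log2 fold changes of -4.37 and -4.24 (adjusted p = 4.7e-06 and 1.0e-05).

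Because the copies arose by duplication, their promoters were compared as well. RefSeq promoter windows on GRCm38.p6, from 250 bases before to 50 bases after the annotated start, were at hand for 6 members. None was at hand for Serpina3h, Serpina3k or Serpina3m, so the promoters of these genes were not searched. The lines below show 4 of the 6 windows, 5′ to 3′ on the gene's strand. They carry both a run common to the members searched and the point where the promoters part. The capitals mark the run CATTTCCTAAGA and, in Serpina3c and Serpina3n, a match to the glucocorticoid receptor consensus, the half-sites GNACA and TGTNC with 3 bases between them.
Serpina3b, chr12:104127867-104127963, plus strand: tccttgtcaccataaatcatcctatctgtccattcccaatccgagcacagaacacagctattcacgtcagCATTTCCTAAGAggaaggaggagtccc
Serpina3c, chr12:104153901-104153997, minus strand: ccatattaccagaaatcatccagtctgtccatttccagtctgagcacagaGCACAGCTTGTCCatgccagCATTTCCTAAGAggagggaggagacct
Serpina3f, chr12:104214409-104214505, plus strand: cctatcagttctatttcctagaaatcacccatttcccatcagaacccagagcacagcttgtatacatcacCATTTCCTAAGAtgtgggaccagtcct
Serpina3n, chr12:104406580-104406676, plus strand: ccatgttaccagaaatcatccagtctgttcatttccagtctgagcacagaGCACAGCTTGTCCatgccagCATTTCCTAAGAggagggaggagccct

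The run CATTTCCTAAGA was found in all 6 member promoters and in 12 of the 32851 promoters searched (0.0365%). It was read off the members first, so its rarity elsewhere is a description. Counted from the annotated start, it began at -59 in Serpina3b, -55 in Serpina3c, -65 in Serpina3f, -37 in Serpina3i and -58 in Serpina3n, and at 32 in Serpina3g. With both strands searched, the glucocorticoid receptor consensus matched in Serpina3c and Serpina3n (0.475% of all promoters), the 2 most abundant members. The STAT consensus TTCNNNGAA matched in Serpina3f, Serpina3g and Serpina3i (8.30% of all promoters), and the TCF/LEF consensus ATCAAAG, through which β-catenin acts, in none of the 6 windows (3.73% of all promoters). None of these motifs overlapped another in the member windows. A match is a string of letters and not a shown binding site, and a missing match says only that these letters are not in this window.

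Within groups, some members varied together and others did not: of 21 pairs, 11 had a positive and 10 a negative correlation, with a median of 0.05. After the group means were removed, Serpina3f and Serpina3i had a Pearson's r of 0.68 over the 23 adipocyte libraries (log2 CPM) and 0.76 over the 12 female libraries alone with their group means left in. Serpina3c and Serpina3n had 0.54 and 0.46, Serpina3b and Serpina3c 0.49 and 0.85, and Serpina3m and Serpina3n 0.44 and 0.62. Serpina3f and Serpina3k ran against each other (-0.47 and -0.39). Serpina3b and Serpina3k, the pair that was low in male knockout-labelled adipocytes, did not track each other within groups (-0.12 and 0.03). The points are libraries of the same preparation and sequencing, and Serpina3f and Serpina3i share some sequence (3.40% and 2.25% of their 100-base stretches occur elsewhere in the cluster), so these are descriptions.

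**Figure D4:**
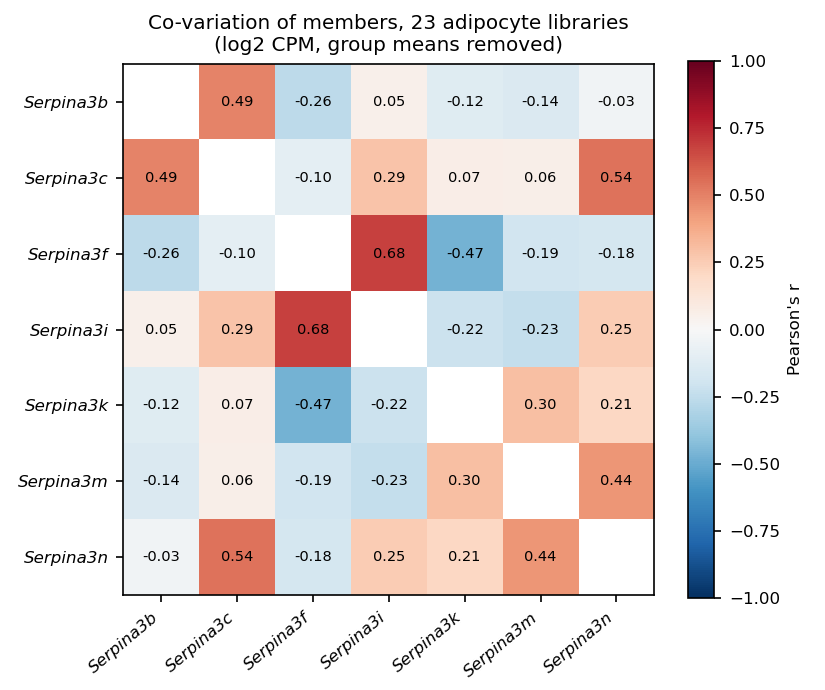
Pearson's r between the 7 members with a mean of at least 1 CPM over the 23 adipocyte libraries, computed on log2 CPM after removing each group's mean and shown on a colour scale from -1 to 1. Serpina3f with Serpina3i (0.68) is the highest pair and Serpina3f with Serpina3k (-0.47) the lowest.

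Among 12708 other genes, those most like each member over the 23 adipocyte libraries were named by r. For Serpina3b they were Tmem9 (0.83), Zfp521 (0.81) and Psmf1 (0.78). For Serpina3k they were Sord, sorbitol dehydrogenase (0.90), Fkbp5 (0.89) and Cep89 (0.89). Serpina3c was closest to Fntb (0.93), Pkmyt1 (0.92) and Fam3a (0.92), and Serpina3n to Itga7 (0.88), Cers4 (0.88) and Supt5 (0.88). For Serpina3f they were Ubtd1 (0.93), Grk2 (0.93) and Eif4g1 (0.92), for Serpina3i Sh2b2, Chdh and Mogat1 (0.94 each), and for Serpina3m Coa7 (0.81), Pex11g (0.80) and Nmt1 (0.78). Much of this likeness is the difference between groups: with group means removed, Fkbp5 and Serpina3k had 0.37 and Psmf1 and Serpina3b 0.19, while Grk2 and Serpina3f kept 0.87 and Ubtd1 and Serpina3f 0.84.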

How the data were processed

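The authors deposited whole-number read counts for each gene, on which all results rest. They also deposited regularised log2 values, made with DESeq2 per the labels, and these entered no result. The submitters' processing notes name STAR 2.7.11a, FastQC 0.12.1 and DESeq2 as tools and mm39 as the genome build. Which program counted the reads, with which strand setting and gene models, is not given in the sources used here. Of 35120 genes, 33501 carried a symbol, by which the members were found.

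Counts were tested with edgeR 4.0.16 (R 4.3.3; TMM, filterByExpr with minimum count 10, robust quasi-likelihood F-test, Benjamini-Hochberg over all genes tested, called below 0.05) in 3 fits: the 23 adipocyte libraries, the 7 SVC libraries and the 18 male libraries. By the rule that every same-numbered pair must correlate above 0.1, no set of replicate numbers was taken as a pairing, and the fits have no block. CPM are of the library total. Levels per kb use exonic lengths of GENCODE M21 on GRCm38, which may differ from the annotation counted. Each contrast was recomputed without each library in turn, with replicate blocks, with the 2 groups alone, with DESeq2 1.42.0, with limma-voom (limma 3.58.1) and with other filters and scalings, of which library totals were chosen after seeing the data. Simulated counts with known changes served to test the code. No 2 libraries of a group agreed within counting noise (lowest chi-square per degree of freedom 12.9).

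Named were all members, Ctnnb1, the 3 most alike genes per member, up to 3 called genes of smallest p per list and the defining markers of the cell types given. The members and the gene lists were chosen with earlier results of these data known.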

Additional observations from a re-analysis of the deposited data

Results flagged for a closer look

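In 4 cases a value stood apart from the rest of its group by Dixon's criterion at 95%, among 45 group and gene combinations of 4 to 10 libraries, where chance flags about 1 in 20. All lie at low counts. Serpina3g in knockout-labelled SVC was highest in replicate 1, at 1.84 CPM (40 counts) with the next library at 1.32 CPM. The pseudogene Serpina3h was highest in male knockout-labelled adipocytes in replicate 1 (0.689 CPM, 15 counts, the next at 0.318 CPM), in female knockout-labelled adipocytes in replicate 4 (0.474 CPM, 10 counts, the next at 0.0937 CPM) and in female control adipocytes in replicate 6 (0.233 CPM, 5 counts, the next at 0.0939 CPM).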

How the results depend on the processing

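Over the alternatives run, 0 members were called in the SVC genotype contrast, 7 to 8 in either comparison of fractions, 7 to 8 between control sexes and 4 to 6 between knockout-labelled sexes. These counts take both directions. Where 8 were called between knockout-labelled fractions, the added member was Serpina3g, lower in adipocytes. Between control fractions it was Serpina3g, lower in adipocytes, or Serpina3h, higher in them. In the female genotype contrast, with 0 members called, 1 was called (Serpina3n) with a minimum count of 50, with DESeq2 and with a replicate block by title number, and leaving out 1 library gave 0 to 1. Values that changed sign were Serpina3c in females on library totals (log2 -0.013, an alternative chosen after seeing the data) and Serpina3h between knockout-labelled fractions with the replicate block (0.074). Leaving out 1 library, Serpina3f in males ranged from -0.092 to 0.22, and in females Serpina3c from -0.031 to 0.10, Serpina3g from -0.15 to 0.61 and Serpina3h from -0.31 to 0.95. In SVC Serpina3n ranged from -0.26 to 0.28 and Serpina3h from -0.35 to 0.034, between knockout-labelled fractions Serpina3h from -0.44 to 0.20, and in female over male knockout-labelled adipocytes Serpina3b from -0.090 to 0.26 and Serpina3m from -0.39 to 0.25.

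Over all genes, the male contrast called 10 genes and 162 with DESeq2, 6 with the 2 groups alone, 17 with the block, and 4 to 332 without 1 library (332 without knockout-labelled library 5, 55 without control 2). The female contrast called 67, 208 with DESeq2, 26 with the 2 groups alone and 32 to 89 without 1 library. SVC gave 0, 65 with DESeq2, 1 with the block and 0 to 1. The share of male calls that were higher was 30% and, with upper-quartile scaling, 11.1%. On library totals the share of calls that were higher moved from 68.7% to 40.4% in the female genotype contrast, from 42.6% to 28.1% and from 41.6% to 29.1% between fractions, and from 52.5% to 36.8% between knockout-labelled sexes. Same-numbered female libraries deviated together with r from 0.06 to 0.71, SVC libraries from -0.04 to 0.17 and male adipocyte libraries from -0.37 to 0.43, so by the rule that every pair exceed 0.1 the numbers were not taken to pair libraries. Title and column numbers differ for some male libraries, and the title-number block then joins columns of different numbers. By column number, adipocyte and SVC libraries had r from -0.05 to 0.35 in controls and 0.01 to 0.14 in knockout-labelled libraries. An equal column number may mark 1 mouse that gave both fractions, which the labels do not state. The p-values between fractions take these libraries as independent. Of 6 female knockout-labelled libraries, 4 correlated best with their own number, and 2 of 6 controls did, a hint from the data and not the design. Serpina3g and Serpina3h, with 1 to 78 counts per library, are limited by depth, and Serpina3b and Serpina3k cannot be compared in SVC.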
